A study of Homo sapiens with 12 samples.

Results

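The HOX genes of K562 cells were described by their RNA level and by the peaks of 2 Polycomb-like proteins along the clusters in which they lie. All genes of the expression table with a symbol made of HOXA, HOXB, HOXC or HOXD and a number were taken, which gave 39 genes of 27348 in the table, 11 in HOXA, 10 in HOXB, 9 in HOXC and 9 in HOXD. K562 is an erythroleukemic line from chronic myeloid leukemia that carries the BCR-ABL fusion. The cells had received an empty vector (shCT) or 1 of 2 lentiviral short hairpin RNAs against the long isoform of PHF19 (sh1 and sh2), with puromycin selection in every arm. RNA-seq was made in 2 libraries per arm, and the expression table gave 1 mean normalized count per gene over all 6 libraries, so a level is a mean of control and depleted cells with no error, and no level per arm is given here. ChIP-seq was made in 1 library per condition, with Drosophila chromatin added as spike-in, and peak lists of PHF19 in shCT, MTF2 in shCT and MTF2 in sh2 were used. PHF19 in sh1 and sh2 and IgG in shCT, the other 3 ChIP-seq libraries, were not used.

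HOX genes encode homeodomain transcription factors that set position along the body axis of the embryo, and several of them also act in blood stem and progenitor cells. They lie in 4 clusters in the order in which they are used along the axis, with the low-numbered (anterior) genes at one end and the high-numbered (posterior) genes at the other, and genes with the same number in different clusters are paralogs. Trithorax-type MLL complexes keep HOX genes active, whereas Polycomb repressor complex 2 (PRC2) trimethylates lysine 27 of histone H3 across silent HOX chromatin. PHF19 and MTF2 are Polycomb-like accessory subunits of PRC2 that bind CpG-rich DNA and bring the complex to its sites.

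The depth of the libraries is unknown from these files, and intervals given below are exact 95% binomial intervals that cover counting error only. With 1 ChIP-seq library per condition, a difference between MTF2 in sh2 and in shCT has no replicate check. The header of the PHF19 list named a second run, sh4, beside the control chromatin, so the sample that served as control for peak calling is not known. The header of the MTF2 list labelled sh2 also named sh4, and the label was kept. The table held the line's own genes: 9 of 9 erythroid markers were at 4463 to 171752 counts, led by HBG2. At least 10 counts were found for 3 of 4 markers of T cells and 1 of 4 of B cells. The same held for 1 of 4 of monocytes and granulocytes and 1 of 4 of fibroblasts, against 53.7% of all genes in the table. Of these 16 markers, CD3D (962 counts) and LYZ (2331 counts) were the highest. The part of cells with such markers in the HOX levels was not tested. In bulk RNA, fewer cells with a transcript and less transcript per cell cannot be told apart.

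The promoters of 3 HOX genes are shown because the results turn on them: the genes at the strongest MTF2 and PHF19 peaks (HOXD8 and HOXD9), and a gene whose promoter was under an MTF2 peak in sh2 alone (HOXA5). HOXA5 was added after the values were seen. Each is the 250 bases before the transcription start site (TSS) of the canonical transcript, 5′ to 3′ on the gene's strand, from GRCh37 (hg19). Capitals mark GCG on either strand (GCG or CGC), a CpG-containing triplet.
HOXD8: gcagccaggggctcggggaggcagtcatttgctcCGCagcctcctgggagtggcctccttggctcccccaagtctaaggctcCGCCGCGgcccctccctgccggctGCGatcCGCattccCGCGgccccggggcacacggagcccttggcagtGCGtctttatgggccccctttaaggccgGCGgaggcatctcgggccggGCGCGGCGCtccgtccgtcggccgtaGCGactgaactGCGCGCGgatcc
HOXD9: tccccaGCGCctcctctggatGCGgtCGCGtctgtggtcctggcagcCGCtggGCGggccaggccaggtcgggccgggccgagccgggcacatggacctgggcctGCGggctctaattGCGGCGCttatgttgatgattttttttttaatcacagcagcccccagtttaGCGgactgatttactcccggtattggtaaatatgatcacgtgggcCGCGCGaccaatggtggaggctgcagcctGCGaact
HOXA5: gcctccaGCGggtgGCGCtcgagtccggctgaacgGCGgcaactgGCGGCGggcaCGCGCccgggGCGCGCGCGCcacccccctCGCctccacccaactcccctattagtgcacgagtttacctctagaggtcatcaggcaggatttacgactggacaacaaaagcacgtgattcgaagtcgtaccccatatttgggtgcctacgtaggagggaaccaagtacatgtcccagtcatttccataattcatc
The HOXD8 sequence lies at chr2:176994183-176994432 on the plus strand, HOXD9 at chr2:176987197-176987446 on the plus strand and HOXA5 at chr7:27183301-27183550 on the minus strand. No shown base is in an annotated exon, except 11 bases of the HOXD8 window in an exon of another HOXD8 transcript. HOXD8 and HOXD9 held 28 and 20 CpG dinucleotides, and HOXA5 held 22.

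The HOX transcripts of K562 cells came mainly from the HOXB cluster. HOXB9 was the highest HOX gene, with a mean normalized count of 5044, or 1950 per kb of exon, and 97.1% of the 23043 genes placed on the genome lay below it per kb. HOXB4, a factor known for expanding blood stem cells, followed with 1072 counts (536 per kb). HOXB2 had 707 counts (288 per kb), HOXB7 had 356 (234 per kb) and HOXB3 had 511 (68.9 per kb). HOXB8, HOXB6 and HOXB5 were lower, with 100, 58.2 and 23.9 counts. Of the 9 genes from HOXB1 to HOXB9, 8 had at least 10 counts, and HOXB1 was listed at 0.

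The HOXC cluster was at an intermediate level. HOXC9 had 189 counts (114 per kb), HOXC6 had 86.8 (25.1 per kb) and HOXC13, the most posterior gene, had 43.7 (18.5 per kb). HOXC8, HOXC4 and HOXC10 had 30.3, 26.2 and 20.2 counts. HOXC5, HOXC12 and HOXC11 had 9.60, 2.55 and 0.255 counts. In HOXD only HOXD8 reached 10 counts, with 11.6 (4.43 per kb). The 10 HOXA genes from HOXA2 to HOXA13 had 0 to 7.99 counts, with HOXA9, a gene well known in myeloid leukemia, and HOXA7 listed at 0. The remaining 8 HOXD genes had 0 to 1.96 counts, with HOXD1, HOXD4 and HOXD11 listed at 0.

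In all, 16 of 39 HOX genes (41%, interval 25.6 to 57.9) had a mean of at least 10 counts, against 53.7% of all genes in the table. Of the other 23 HOX genes, 6 were listed at 0, 9 lay between 0 and 1, and 8 lay from 1 to 9.60. The 10 highest genes were the same set with the length of all exons, of the longest or of the canonical transcript, or with no length. Their order was not: HOXB3 had 68.9 per kb with all exons but 155 per kb of the canonical transcript, which put it above HOXC9. Strand was not stated for the counting, and overlap with exons of other genes was taken for each strand apart. It was over 25% of the exon length on a single strand in HOXA4, HOXA6, HOXA7, HOXA11, HOXC5 and HOXD1 (6 genes). Further genes had smaller overlaps on both strands, such as HOXB6 (16.6% on the same and 16.3% on the opposite strand). The counts of all such genes are uncertain.

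**Figure D1:**
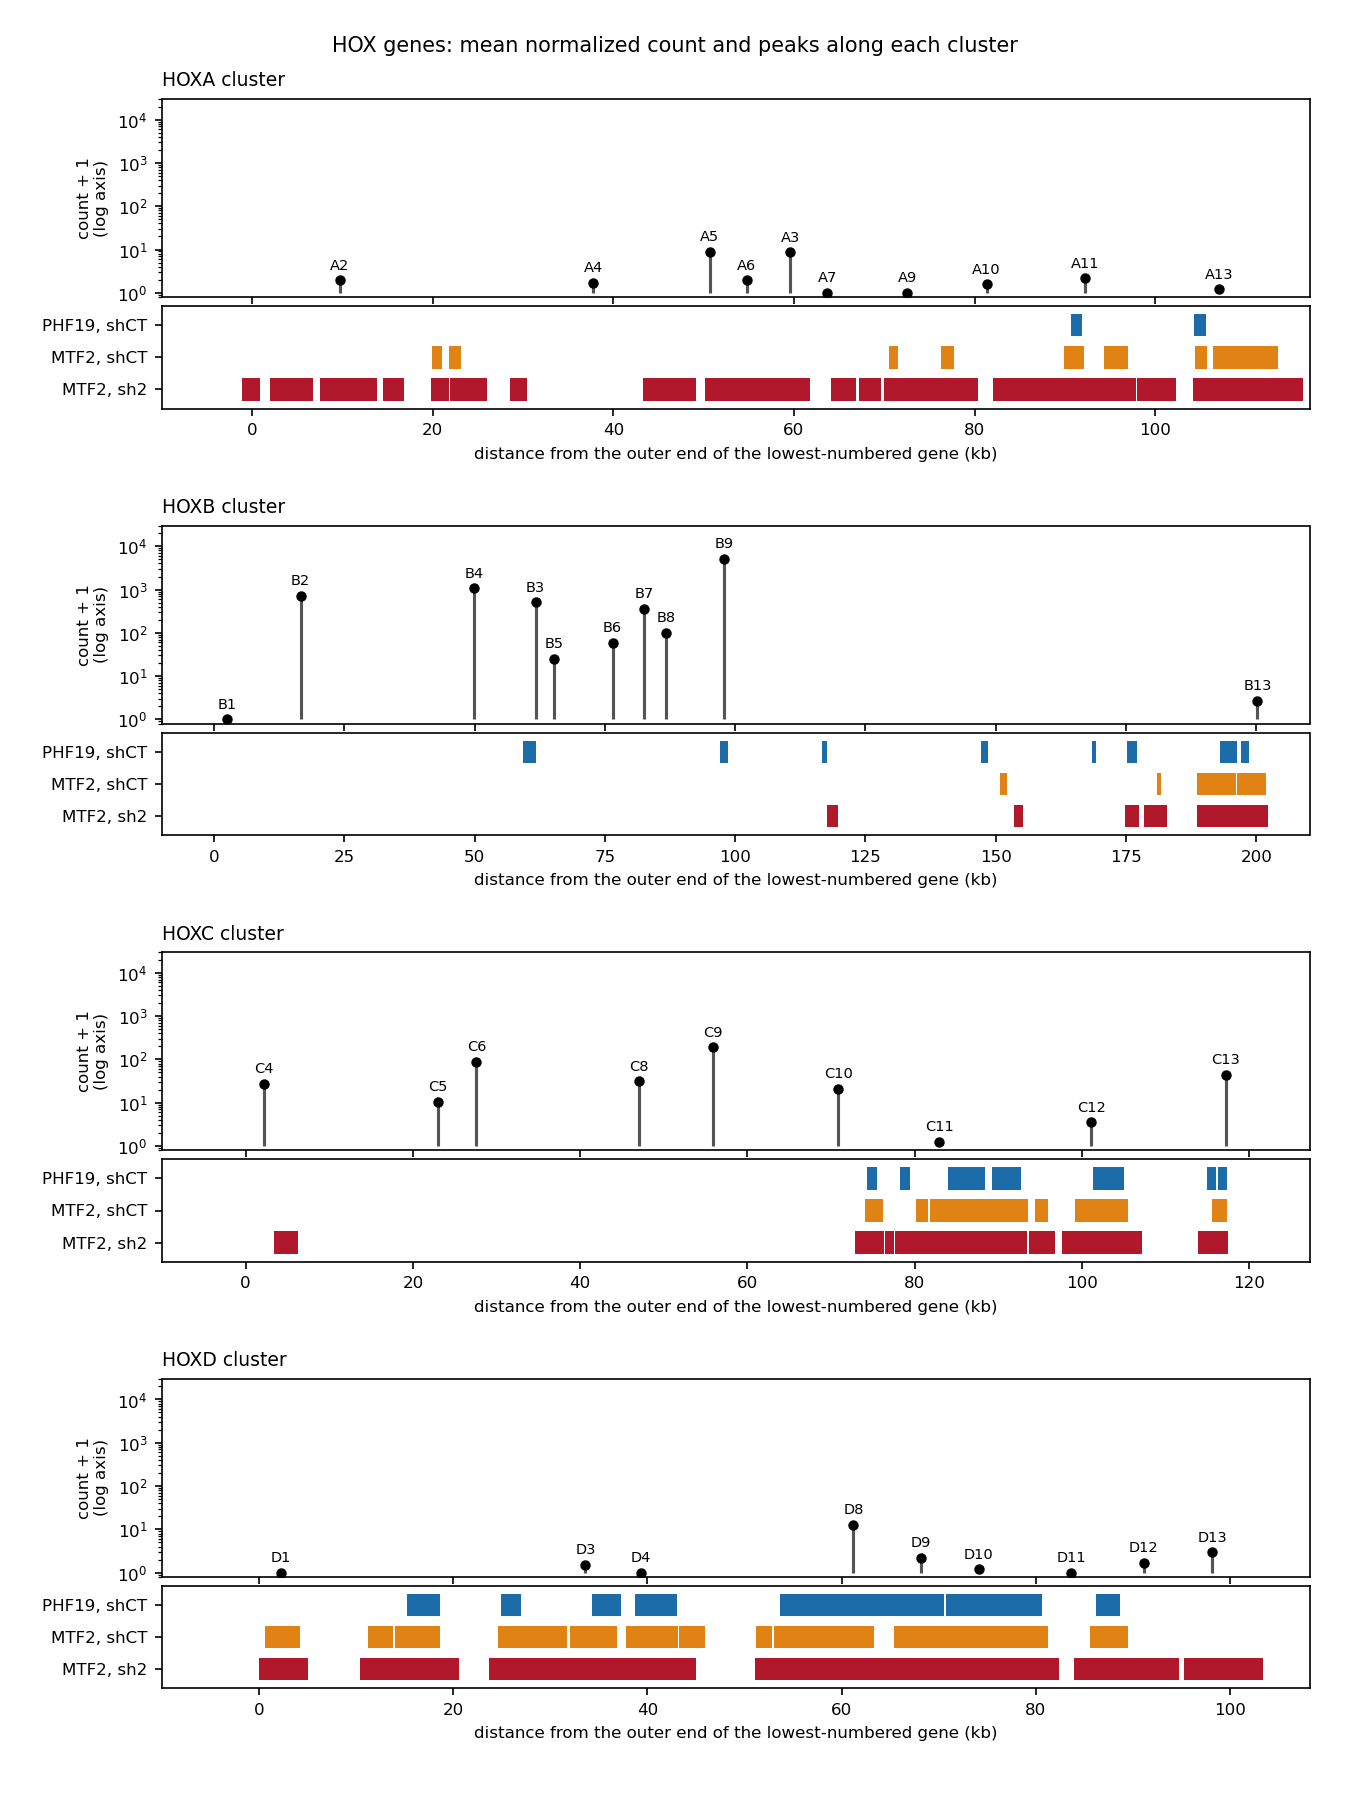
Mean normalized count plus 1 at the canonical TSS of 38 HOX genes (points, log axis, mean of 6 RNA-seq libraries) above the peaks of 3 ChIP-seq lists (bars, 1 library each) that touch the cluster, against distance in kb from the outer end of the lowest-numbered gene. The highest counts, from HOXB2 to HOXB9, lie over a stretch with 2 PHF19 peaks and no MTF2 peak, and HOXD is under peaks for most of its length.

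Peaks covered a far larger share of the HOX clusters than of the genome. Between the first and the last gene of each cluster (522711 bp in all), PHF19 peaks of shCT covered 14.2%, MTF2 peaks of shCT 21.6% and MTF2 peaks of sh2 42.5%. Over the whole genome the same lists covered 0.403%, 1.02% and 2.21%. The 4 clusters differed widely from each other. HOXD was the most covered cluster by each protein, and HOXB the least covered by MTF2.

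**Figure D2:**
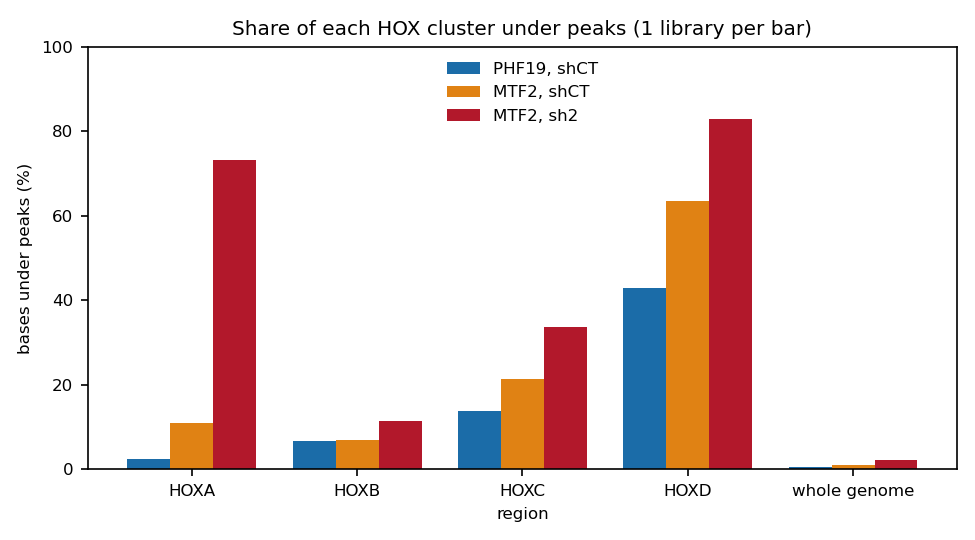
Percent of the bases of each HOX cluster, and of the genome, that lie under peaks of PHF19 in shCT, MTF2 in shCT and MTF2 in sh2. Each bar is 1 library with no error, and HOXA shows the widest step between the MTF2 bars, from 11% to 73.3%.

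The HOXD cluster (chr2:176957449-177055635) was under 8 PHF19 peaks that covered 42.8% of it and 11 MTF2 peaks that covered 63.5% in shCT. Its strongest PHF19 peak, chr2:176985112-177002024, was 16913 bp wide, spanned the start sites of HOXD8 and HOXD9, and ranked 57 of 5621 by the score of the peak caller (421). The strongest MTF2 peak of shCT, chr2:176992274-177002566, lay over HOXD8 with a score of 1176 and rank 66 of 12502. In sh2 the peak over the same gene, chr2:176992237-177004530, had rank 35 of 18287 with a score of 2496. Scores rank peaks within a list and were not compared between lists. Longer blocks were called in sh2, with 7 peaks over 83% of the cluster. HOXD13 at the posterior end and HOXD1 at the anterior end had no PHF19 peak in their promoter windows.

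In HOXC (chr12:54332615-54449814) the peaks stood at the posterior end. From the start of HOXC13 to the end of HOXC11, 38.2% of the bases were under PHF19 peaks, 59.1% under MTF2 peaks of shCT and 80.1% under MTF2 peaks of sh2. Over the remaining 78.4 kb, which hold HOXC4 to HOXC10, the shares were 1.71%, 2.73% and 10.7%. The strongest PHF19 peak (chr12:54344740-54348542, score 233, rank 293) and the strongest MTF2 peaks (chr12:54344311-54350701, score 313, rank 1142 in shCT, and chr12:54342698-54352152, score 661, rank 1047 in sh2) all lay by HOXC12. HOXC12 had 2.55 counts, whereas HOXC6, HOXC8 and HOXC9, with 30.3 to 189 counts, had no promoter peak in any list. HOXC13 went against this division, with 43.7 counts and its start site under a peak of all 3 lists.

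HOXB (chr17:46605888-46806112) divided the same way but more sharply. No MTF2 peak of either condition lay from HOXB1 to HOXB9 and the upstream start of HOXB7 beyond it, a stretch of 105 kb that held all 8 HOXB genes with at least 10 counts. PHF19 had 2 peaks there, both over start sites of transcribed genes. The peak at HOXB3 (chr17:46665242-46667634) had a score of 68.4 and rank 3123, and the peak at HOXB9 (chr17:46703071-46704527) had a score of 51.3 and rank 5331 of 5621, close to the lowest score in the list, 50. By contrast, HOXB13 with 10 kb on each side was 35.7% under PHF19 peaks, 75.5% under MTF2 peaks of shCT and 86.1% under those of sh2. HOXB13, a posterior gene known from prostate, had 1.65 counts. The strongest HOXB peaks of all lists lay by HOXB13, at chr17:46798959-46802127 for PHF19 (score 109, rank 1314), at chr17:46802138-46807847 for MTF2 in shCT (score 539, rank 426) and at chr17:46794451-46808211 in sh2 (score 782, rank 788).

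In HOXA (chr7:27132612-27239710) PHF19 had 2 peaks, which covered 2.34% of the cluster and lay by the posterior genes HOXA11 and HOXA13. Neither reached the median score of the list, so the share was 0 with the stronger peaks alone, and it was 4.72% with 20 kb added on each side of the cluster. The higher of the 2, chr7:27236970-27238287, had a score of 68.0 and rank 3157. MTF2 in shCT had 8 peaks over 11% of the cluster. The strongest, chr7:27239004-27246231, covered the start of HOXA13 with a score of 620 and rank 310. MTF2 in sh2 had 16 peaks over 73.3% of the cluster, again led by HOXA13 (chr7:27236850-27249025, score 1151, rank 349). The median of the HOXA genes was 0.934 counts, against 2.55 for all 39 HOX genes and 0.531 for those of HOXD.

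A gene was counted as having a promoter peak where a peak touched the window of 2.5 kb on each side of any of its annotated start sites. PHF19 had a promoter peak at 15 of 39 HOX genes (38.5%, interval 23.4 to 55.4), against 7.98% of all placed genes. MTF2 in shCT had one at 18 of 39 (46.2%, 30.1 to 62.8), against 11.3%, and MTF2 in sh2 at 25 of 39 (64.1%, 47.2 to 78.8), against 15.8%. With only peaks at or above the median score of their list, the counts were 8, 15 and 22. The study counted PHF19 peaks as positive only above a minimum of tags, which the peak list does not give. It reported far fewer PHF19 peaks than the 5621 used here, so these include ones that the study set aside. Whether HOX peaks are among those, weak ones such as that at HOXB9 included, is not known. Neighbouring HOX genes share peaks, so the 39 genes are not independent of each other. The windows were also filled to a larger extent than elsewhere. Among genes with a promoter peak, the median share of the window under peaks was 29.7% for HOX genes and 14.5% for all genes with PHF19, 59.1% and 20.6% with MTF2 in shCT, and 92% and 30.7% with MTF2 in sh2.

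The PHF19 genes were 7 of 9 in HOXD (HOXD3, HOXD4 and HOXD8 to HOXD12), 3 of 9 in HOXC (HOXC11, HOXC12 and HOXC13), 3 of 10 in HOXB (HOXB3, HOXB9 and HOXB13) and 2 of 11 in HOXA (HOXA11 and HOXA13). MTF2 in shCT was at 13 of these 15, the exceptions being HOXB3 and HOXB9. It was also at HOXA3, HOXA9, HOXA10, HOXD1 and HOXD13, where PHF19 had no promoter peak. The widest PHF19 windows were those of HOXD8 (100% under peaks), HOXD9 (96.7%) and HOXD4 (71%), and the narrowest was that of HOXD12 (0.439%), where a peak only reached the edge. No list had a peak in the windows of 12 genes: HOXA4, HOXB1, HOXB2, HOXB4 to HOXB8, HOXC5, HOXC6, HOXC8 and HOXC9.

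**Figure D3:**
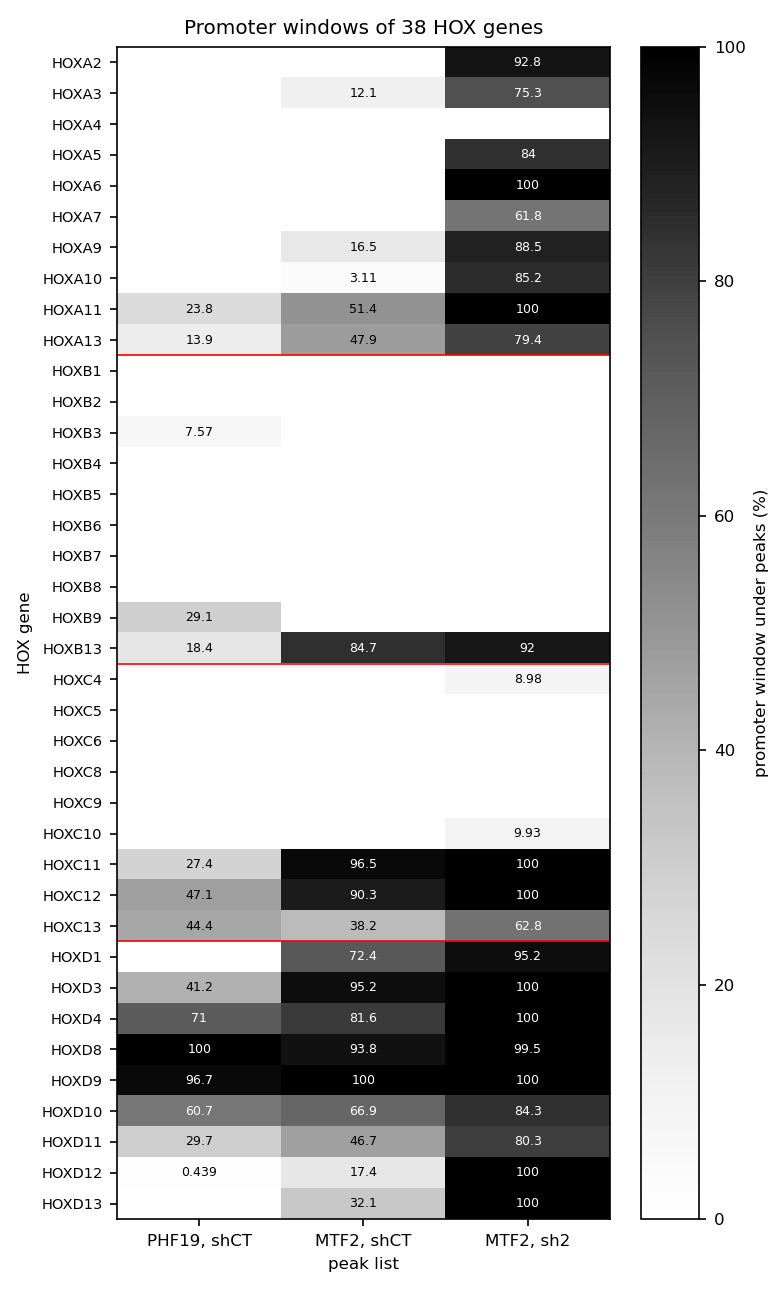
Percent of the promoter window (2.5 kb on each side of every start site) of 38 HOX genes under peaks of each list, in shades of grey with the value in each cell that is above 0 and red lines between clusters. From HOXA2 to HOXA7 all windows but that of HOXA3 are empty in both shCT lists, and all but that of HOXA4 are 61.8% to 100% covered by MTF2 in sh2.

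In the library labelled sh2, MTF2 had a promoter peak at 7 HOX genes that had none in shCT, of 21 such genes (33.3%, interval 14.6 to 57.0), against 5.83% of all placed genes without one in shCT. They included HOXA2, HOXA5, HOXA6, HOXA7, HOXC4 and HOXC10. The HOXA windows were broadly covered, from 61.8% at HOXA7 to 100% at HOXA6, and those of HOXC4 and HOXC10 only at an edge (8.98% and 9.93%). The share of the window under MTF2 peaks was larger in sh2 at 24 of the 39 genes and smaller at none. The like count over all placed genes was not made. No HOX gene with an MTF2 promoter peak in shCT was without one in sh2. Such loss was uncommon in general: 83.2% of all MTF2 peaks of shCT touched one of sh2, and 29 of 30 in the HOX clusters. The whole sh2 list was also wider, at 63.2 Mb against 29.0 Mb.

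Against that wider list, the MTF2 lists differed most in HOXA. The covered length in sh2 was 6.67 times that in shCT in HOXA, but 1.66 times in HOXB, 1.57 times in HOXC and 1.31 times in HOXD, and 2.18 times over the whole lists. Coverage in shCT limits this ratio. HOXD, already 63.5% covered, could not have reached 2.18, whereas HOXA (11%), HOXB (6.8%) and HOXC (21.4%) could. The HOXC value did not hold for stronger peaks: with peaks at or above the median score of each list it was 0.695, below 1, as 20.1% of HOXC was covered in shCT and 14% in sh2. The widest HOXC peak of sh2 (15870 bp), over HOXC11, had a score of 63.8 and is not among those. With the same limit the ratio was 7.92 in HOXA, 1.40 in HOXB and 1.35 in HOXD. The ratio over all 4 clusters was 1.97, below the 2.18 of the whole lists. Over promoter windows it was 2.11 for the HOX genes and 1.89 for all placed genes. Within HOXA the ratio was 16.8 in the anterior part up to HOXA7, where MTF2 of shCT covered 2413 bp and that of sh2 40605 bp, and 4.05 from there to the end of HOXA13. Of all MTF2 peaks of sh2, 46.9% touched an MTF2 peak of shCT and 15.9% a PHF19 peak. Of the 16 HOXA peaks of sh2, 14 touched no PHF19 peak, near the share of the whole list, and 11 (44.3 kb) touched no MTF2 peak of shCT. The strongest of these 11, chr7:27175879-27181782, had a score of 698 and rank 957 and reached from the stretch between HOXA4 and HOXA5 into the 3′ end of HOXA5. In HOXD all 7 peaks of sh2 touched a peak of shCT. With equal numbers of the highest-scoring peaks from both lists, the ratio was 1.78 over the HOX clusters and 1.79 over the whole lists. These values rest on 1 library per condition and the difference between clusters was not tested.

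Most PHF19 peaks of the HOX clusters lay on MTF2 peaks, but in HOXB most touched none of shCT. Among the 8 PHF19 peaks of HOXB, only those by HOXB13 touched an MTF2 peak of shCT. Of 25 PHF19 peaks, 18 (72%, interval 50.6 to 87.9) touched an MTF2 peak of shCT, against 47.5% of all PHF19 peaks, and 21 (84%) touched one of sh2, against 57.5%. From the side of MTF2, 16 of 30 peaks of shCT (53.3%) and 14 of 35 of sh2 (40%) touched a PHF19 peak, against 21.4% and 15.9% of all. When at least 1 in 2 bases of each peak of a pair had to be shared, 11 of the 25 PHF19 peaks remained. HOX peaks were not uniformly strong. By score, 6 of 25 PHF19 peaks (24%) were in the highest-scoring 25% of their list, whereas 15 of 30 MTF2 peaks of shCT (50%) and 18 of 35 of sh2 (51.4%) were. In width, 6 PHF19 peaks, 10 MTF2 peaks of shCT and 13 of sh2 were in the widest 10% of their lists.

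HOX genes with promoter peaks were mostly at low levels, though the PHF19 genes included HOXB9. The median level was 0.435 per kb in the 15 HOX genes with a PHF19 peak and 7.24 per kb in the 24 without, beside 4.60 and 11.0 per kb over all placed genes. For MTF2 in shCT the medians were 0.214 per kb in 18 HOX genes with a peak and 12.9 per kb in 21 without, beside 0.711 and 19.4 per kb over all. The 12 genes with no peak in any list had the highest median of the 4 classes, 23.7 per kb, and 9 of them had at least 10 counts. Over all placed genes with no promoter peak in any list the median was 24.3 per kb, about the same, and 60.4% had at least 10 counts. The 7 genes under MTF2 in sh2 alone lay between, at 4.64 per kb, and the 5 with MTF2 in shCT but no PHF19 were at 0.154 per kb. Levels were means over control and depleted cells, so they do not show the state of shCT alone.

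Of the 15 HOX genes with a PHF19 promoter peak, 4 (26.7%, interval 7.79 to 55.1) had at least 10 counts, against 59.8% of all placed genes with such a peak. These were HOXB9, HOXB3, HOXC13 and HOXD8. In all 4 the canonical start site itself was under a PHF19 peak, which was so in 7 of the 15. The lower median of the PHF19 genes therefore depended on the window. Counting only peaks over any start site left 9 PHF19 genes, and the difference of the medians, with minus without a peak, was then -0.673 per kb in place of -6.81. With the canonical start site under a peak the direction turned, with 4.43 per kb in 7 genes and 0.796 per kb in the other 32. Among the 18 HOX genes with MTF2 in shCT, HOXC13 and HOXD8 were the 2 with at least 10 counts, against 39.1% of all placed genes with such a peak. HOXB9 and HOXB3 were the PHF19 genes with no MTF2 promoter peak. The nearest MTF2 peak of either condition was 19698 bp from a start site of HOXB9 and 41144 bp from one of HOXB3.

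**Figure D4:**
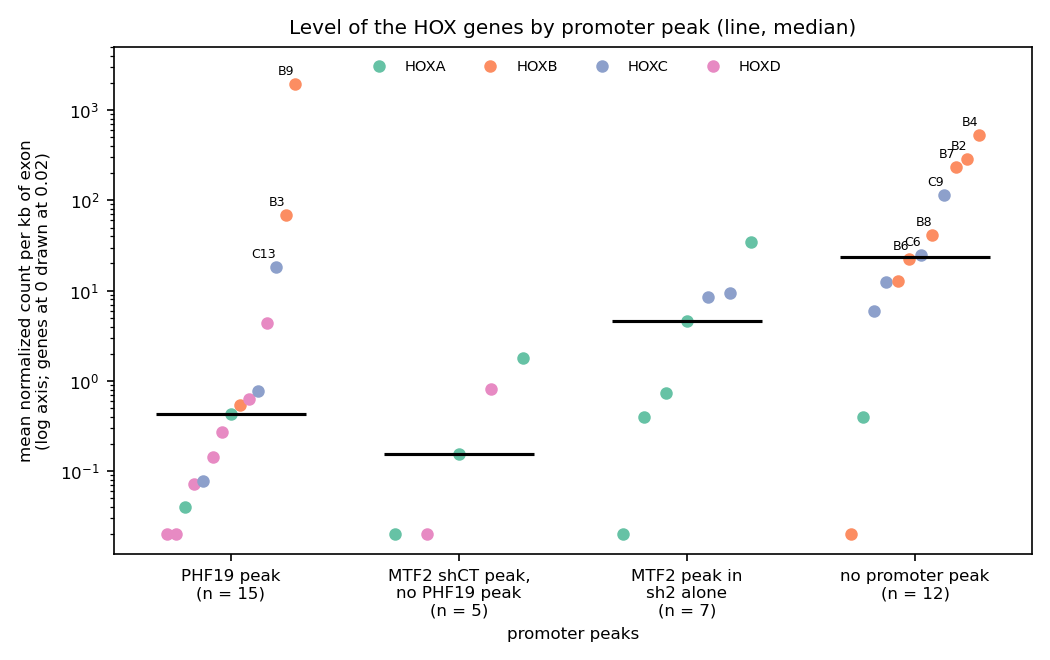
Mean normalized count per kb of exon (log axis, mean of 6 RNA-seq libraries, genes at 0 drawn near the foot) of the 39 HOX genes in 4 classes by promoter peak, coloured by cluster, with a line at each class median. Medians are 0.435, 0.154, 4.64 and 23.7 per kb from left to right, and HOXB9 and HOXB3 lead the PHF19 class.

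Paralogs of one number differed widely in level. In group 9 the counts were 5044 for HOXB9, 189 for HOXC9, 1.17 for HOXD9 and 0 for HOXA9. In group 4 they were 1072 for HOXB4, 26.2 for HOXC4, 0.688 for HOXA4 and 0 for HOXD4. Group 8 was the group in which all members had at least 10 counts, with 100 for HOXB8, 30.3 for HOXC8 and 11.6 for HOXD8. The posterior groups were alike in their peaks. All 9 genes of groups 11, 12 and 13 had an MTF2 promoter peak in shCT and in sh2, and 8 of them, all but HOXD13, a PHF19 peak. Their counts were 0 to 2.55, except for HOXC13. In groups 2, 5, 6 and 7 no gene had a promoter peak in either shCT list.

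Genes that work with HOX proteins or on HOX chromatin were read from the same table. TALE homeodomain proteins are cofactors that bind DNA together with HOX proteins. Of 9 such genes, 7 had at least 10 counts, against 53.7% of all genes in the table. PBX2 (5896 counts), MEIS2 (1129), PKNOX1 (698) and MEIS1 (296) had no promoter peak, whereas PBX3 (22.8), PKNOX2 (4.04) and MEIS3 (3.86) had one in all 3 lists. Of all placed genes, 7.98% (PHF19), 11.3% (MTF2 in shCT) and 15.8% (MTF2 in sh2) had one. Of the MLL and menin complex, all 10 genes listed had 1764 to 10943 counts, with ASH2L, a core subunit, the highest. DPY30 alone among them had a promoter peak, of PHF19.

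Noncoding RNAs of the clusters were low. Of 16 in the table, 5 had at least 10 counts, against 53.7% of all genes in the table. They were HOXB-AS1 (40.3), HOXC-AS2 (39.9), HOXC-AS1 (36.6), HOTAIRM1 (27.7) and HOXB-AS3 (17.2). HOTAIR, which is transcribed from HOXC, had 0.410 counts and HOTTIP, at the posterior end of HOXA, was listed at 0, and both had promoter peaks in all 3 lists. HOTAIRM1 and HOXA-AS3 had a promoter peak in sh2 alone. Several of these RNAs overlap HOX exons on the other strand, and their reads cannot be told apart here. Of 15 listed neighbours of HOX genes, inside or outside the cluster limits, 9 had at least 10 counts, against 53.7% of the table. A PHF19 promoter peak was at 8, against 7.98% of all placed genes, and neighbours can share peaks with HOX genes. These 8 included EVX1, PRAC1, PRAC2 and TTLL6 at 0 counts and also HIBADH (2749), SKAP2 (1124) and SMUG1 (1069). MTX2 (3963 counts) and LNPK (4533), which flank HOXD, had no promoter peak.

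Other homeobox genes of the same class, which lie outside the clusters, gave a reference. Of 37 such genes, 9 (PHF19), 21 (MTF2 in shCT) and 25 (MTF2 in sh2) had a promoter peak, against 7.98%, 11.3% and 15.8% of all placed genes, and 11 had at least 10 counts, against 53.7% of the table. The highest per kb were HHEX, a blood and endothelial regulator (4007 counts), DLX4 (1543) and DLX1 (517), followed by TLX1 (148) and MSX1 (76.4). HHEX, DLX1 and MSX1 had no promoter peak in any list. As 21 of the 37 already had an MTF2 promoter peak in shCT, only the others could gain one in sh2. Of these others, 4 did so, namely MEOX1, NKX2-1, VAX1 and HLX. Among genes without one in shCT, 5.83% of all placed genes and 7 of 21 HOX genes had one in sh2.

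The base composition of HOX promoters was taken over the same 250 bases before the start site as in the sequences above. GCG was present on either strand in all 39, against 87% of the promoters of all placed genes and 94.9% to 95.6% of those with a promoter peak. HOX promoters did not hold more of it, with a median of 9 GCG against 11 in all placed genes. The median was 15 CpG per promoter in HOX genes and 15 in all genes, but 22 in HOXA, 21 in HOXD, 11 in HOXC and 10 in HOXB. The HOX genes with no peak in any list had a median of 10.5 and those with a PHF19 peak 15. Those with MTF2 in shCT but no PHF19, and those under MTF2 in sh2 alone, both had 21. Over all placed genes with a promoter peak the medians were 23 (PHF19), 20 (MTF2 in shCT) and 19 (MTF2 in sh2). Single genes went both ways. HOXA4 held 26 CpG and 29 GCG and had no peak in its windows, whereas HOXD4 held 4 CpG and 1 GCG, and 81.6% of its window was under MTF2 peaks of shCT. HOXA13 was the richest HOX promoter, with 40 CpG.

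Along the clusters, CpG density was 2.97 per 100 bases, against 0.985 over the genome. It was 3.32 in PHF19 peaks of the HOX clusters, 3.86 in MTF2 peaks of shCT and 3.49 in those of sh2, and 2.54 in the cluster bases outside every peak. Over all peaks of the same lists it was 2.82, 2.91 and 2.51. By cluster it was 3.68 in HOXA, 3.39 in HOXD, 2.91 in HOXC and 2.41 in HOXB. HOXA, with the largest ratio of MTF2 coverage in sh2 to shCT (6.67), was the most CpG-rich cluster. HOXD, the next in CpG density, had the smallest ratio (1.31). A relation between CpG density and this ratio was not tested.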

How the data were processed

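K562 RNA-seq (6 libraries) and ChIP-seq (6 libraries) were grouped by their labels. The authors aligned RNA-seq reads with TopHat to hg19, counted genes and ran DESeq2, and the deposited mean normalized count (treated here as a score, since it pools all libraries) was used. The table's 5 other columns, which hold the authors' own comparison of depleted with control cells (fold change, error, statistic and p-values), were not used. ChIP-seq reads were aligned with Bowtie to hg19 and the fly genome and peaks called with MACS. Peak positions and the deposited peak score were used, and no spike-in scaling of the lists is stated. Tool versions were not given in the sources used here.

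Of 27348 genes, 23043 were placed by symbol on GENCODE release 44 models lifted to GRCh37. Levels were divided by the length of all exons. Peaks, windows and covered bases were counted in Python 3.11.15 with numpy 2.4.6 and pandas 2.3.3, intervals computed with scipy 1.17.1, and the interval code was tested on simulated data. No group test was possible, so nothing was tested, and a difference is given as values. Named HOX genes are those with at least 10 counts, and per cluster and list the highest-scoring peak. From each further list, up to 5 genes with the highest level per kb were named, with others singled out after their values were seen. Some genes and sequences that the rules select are not reported here. Members and lists were chosen with earlier results of these data known. Promoter windows, scores, cluster limits, overlaps, minimum counts and gene lengths were varied.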

Additional observations from a re-analysis of the deposited data

How the results depend on the processing

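The counts of HOX genes with an MTF2 promoter peak stayed within 1.5 times their value under all windows, start sites, overlaps and score limits tried, and so did the count of PHF19 genes under windows of 1 kb and 5 kb. The count for PHF19 (15) was 9 with the start site itself under a peak, 8 with peaks at or above the median score and 5 with the highest-scoring 25% of peaks. Coverage of the 4 clusters became 13.7% for PHF19 and 41.1% for MTF2 in sh2 with 20 kb added on each side, 11.0%, 18.0% (MTF2 in shCT) and 33.5% with 50 kb, and 10.2%, 19.6% and 35.4% with peaks at or above the median score. PHF19 peaks sharing at least 1 in 2 bases of each peak with MTF2 in shCT numbered 11 of 25. With minimum counts of 50 and 100, 10 and 7 HOX genes passed. The difference of median levels, with minus without a peak, was -0.673 per kb for PHF19 with the start site under a peak, 3.64 per kb for PHF19 and -7.10 per kb for MTF2 in shCT with the canonical start site under a peak, and -13.7 counts for PHF19 and -29.7 counts for MTF2 in shCT with no length. The ratio of MTF2 coverage in sh2 to shCT in HOXC turned to 0.695 with peaks at or above the median score and 0.896 with equal numbers of the highest-scoring peaks, and in HOXA it was 3.32 with 50 kb added. These ratios per cluster, and the canonical start site and transcript, were added after the data were seen. No paired analysis was possible because the expression table holds no value per library and ChIP-seq has 1 library per condition. Leaving out a replicate was not run for the same reason. Depth could not be read from these files.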
